A study of Mus musculus with 15 samples.

Results

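Transcripts of 9 genes that carry the cAMP signal from protein kinase A to the nucleus were followed in differentiated MAP cells, immortalized mouse progenitors that become adipocytes in culture. They encode the transcription factors CREB1, CREM and ATF1 (Creb1, Crem, Atf1), their coactivators (Crtc1, Crtc2, Crtc3) and the salt-inducible kinases (Sik1, Sik2, Sik3). The 9 genes were chosen by name, with earlier results of these data known, out of 24421 gene symbols counted. All 9 passed the filter on low counts that left 14421 genes. Forskolin, a direct activator of adenylyl cyclase, was given for 4 h (group FSK4h), for 1 day (FSK1D) and for 3 days (FSK3D). Rosiglitazone, which activates the nuclear receptor PPARγ, was given for 3 days (Rosi3D). All were set against cells given vehicle, with 3 libraries in each of the 5 groups. All groups, vehicle included, had first been differentiated for 2 days in a mixture that held insulin, the phosphodiesterase inhibitor isobutylmethylxanthine, dexamethasone and 1 µM rosiglitazone, and for another 2 days in insulin and rosiglitazone. Treatment began at day 7 to 8. The Rosi3D cells were therefore exposed to rosiglitazone a further time, and the vehicle cells were not free of earlier exposure. Treatment doses and the vehicle harvest time were not stated, and all libraries came from this 1 cell line. Treatment and days in culture can therefore not be told apart, against vehicle or between forskolin times. Rises and falls below are differences between groups.

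CREB1, CREM and ATF1 are basic leucine zipper proteins that bind the cAMP response element, or CRE. When cAMP rises, protein kinase A phosphorylates them, which recruits the acetyltransferases CBP and p300, and it also restrains the salt-inducible kinases. Those kinases, which LKB1 activates, otherwise phosphorylate the CRTC coactivators and hold them in the cytoplasm bound to 14-3-3 proteins. Once released, CRTC proteins enter the nucleus and bind CREB at its target genes. Crem also encodes ICER, a short repressor made from an internal promoter, and Sik1 is itself a known CREB target, so the pathway contains its own brakes. In fat cells this pathway controls lipolysis and heat-producing genes, and SIK2 is a kinase known to be abundant in adipocytes.

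Promoter sequences from RefSeq (GRCm38.p6) matched 6 of the 9 genes, namely Creb1, Atf1, Crtc1, Crtc3, Sik2 and Sik3. Crem, Crtc2 and Sik1 were not matched. The 250 bases before each start were searched on both strands for the full CRE, TGACGTCA, and for its core, TGACG, which the full motif contains. The upstream sequences of Sik3 and Sik2 are shown because these kinase genes lie on the same chromosome and moved differently under forskolin, with each match to the core in capitals:
Sik3 (chr9:46012570-46012819, plus strand): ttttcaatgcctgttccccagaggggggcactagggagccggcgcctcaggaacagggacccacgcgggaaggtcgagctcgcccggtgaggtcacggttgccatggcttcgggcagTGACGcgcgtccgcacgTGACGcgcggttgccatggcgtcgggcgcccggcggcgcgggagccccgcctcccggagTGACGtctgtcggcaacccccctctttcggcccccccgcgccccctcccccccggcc
Sik2 (chr9:51009074-51009323, minus strand): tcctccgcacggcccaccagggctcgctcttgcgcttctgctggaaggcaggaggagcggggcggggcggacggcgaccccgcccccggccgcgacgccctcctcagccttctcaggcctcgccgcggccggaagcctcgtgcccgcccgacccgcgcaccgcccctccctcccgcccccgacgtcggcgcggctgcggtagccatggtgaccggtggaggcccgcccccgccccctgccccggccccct
The core was found 3 times before Sik3, beginning 133, 116 and 57 bases upstream of the start, and 0 times before Sik2. Before Atf1 it was found once, 90 bases upstream, so that 2 of the 6 matched genes held it, against 17.8% of 32851 promoter windows of this length. The full CRE was found in 0 of the 6, against 1.55% of all windows. Starts are those of RefSeq. In GENCODE vM21 the windows of Creb1, Atf1 and Crtc1 hold 159, 40 and 6 exon bases of the same gene. Those windows are therefore not wholly upstream by that annotation. A match describes only these letters in this window.

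The libraries held between 14056200 (FSK3D) and 56282582 (Rosi3D) counts. Mature adipocyte markers (Adipoq, Fabp4, Plin1, Pparg, Cebpa, Lipe, Cidec, Lpl) were counted in every group. Markers of other cell types moved with the treatments. The 6 progenitor markers summed to 473 to 533 CPM (counts over scaled library size) after 4 h of forskolin, 704 to 724 after 1 day, 480 to 533 after 3 days and 219 to 245 under rosiglitazone, against 319 to 348 CPM in vehicle. Pdgfra and Ly6a made up most of the progenitor sum, at 208 and 121 CPM in vehicle. Pdgfra was called higher at each forskolin time, and Ly6a at 1 day (1.83 ± 0.17) and 3 days. Both were lower in Rosi3D. Dlk1 and Cd34, at 1.14 and 1.48 CPM in vehicle, had lower means at each forskolin time but were not called there. Pi16 and Dpp4 were not tested, and Dpp4 was at 0 outside vehicle. The 4 smooth muscle markers summed to 164 to 177 CPM in FSK4h, 22.7 to 24.1 CPM in FSK1D, 66.9 to 72.0 CPM in FSK3D and 52.5 to 53.0 CPM in Rosi3D, against 222 to 229.7 CPM in vehicle. Acta2 made up most of this sum and fell at 1 day (-3.74 ± 0.062). Of the 4 genes 3 fell in FSK1D, beside 20.7% of all genes. In FSK3D 1 rose (Des, 1.85 ± 0.16) and 2 fell, beside 25.9% and 27.0% of all genes. In Rosi3D 1 rose (Myh11) and 2 fell, beside 28.6% and 32.0%. Myh11 had 9.18 ± 1.67 CPM in Rosi3D against 3.28 ± 0.583 CPM in vehicle (SD, n = 3 each). The 5 macrophage markers reached 9.06 to 11.3 CPM in FSK4h and 10.1 to 11.1 CPM in FSK1D, against 4.17 to 4.77 CPM in vehicle. They were at 4.89 to 5.34 CPM in FSK3D and 2.61 to 4.03 CPM in Rosi3D. Among them Csf1r and Cd14 rose at 4 h (1.67 ± 0.28 and 1.40 ± 0.20) and at 1 day (1.93 ± 0.28 and 1.68 ± 0.20), while Cd68 was not called at either time. Ptprc and Adgre1 were at 0 in FSK1D and FSK3D, but had only 4 and 1 counts over the vehicle libraries. The 4 endothelial markers summed to 5.77 to 6.27 CPM in FSK4h, 3.56 to 4.63 in FSK1D and 6.69 to 7.54 in FSK3D. They summed to 3.07 to 4.74 CPM in Rosi3D and 6.10 to 9.23 CPM in vehicle. The part of these markers in the results was not tested. The share of the ribosomal RNA precursor Rn45s was 4.15% to 5.79% in FSK3D, 6.27% to 7.24% in Rosi3D and 8.50% to 8.57% in vehicle libraries, and its part in the results was not tested. In such bulk RNA, fewer cells of a type and less RNA per cell cannot be told apart. Levels below are CPM after scaling of library sizes by the trimmed mean of M values (TMM). Changes are log2 fold changes ± standard error (SE), and the threshold for a call was an adjusted p of 0.05 in edgeR's quasi-likelihood test over all genes.

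**Figure D1:**
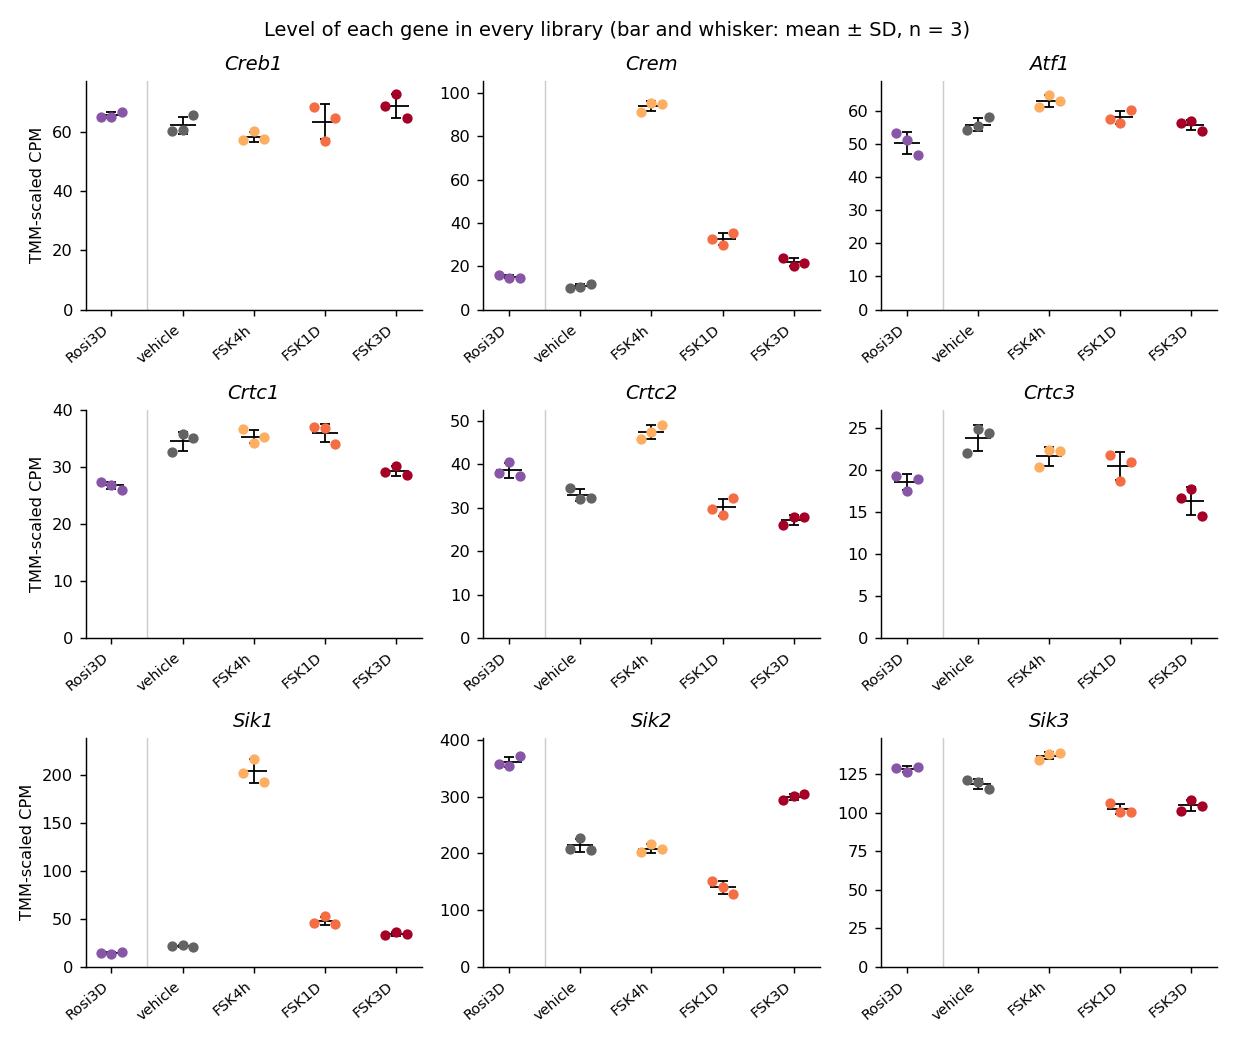
Level of the 9 genes in each of the 15 libraries, in TMM-scaled CPM on linear axes from 0. Points are libraries, horizontal bars and whiskers are the mean ± SD of 3 libraries. Crem and Sik1 peaked in FSK4h at 93.8 and 204 CPM, and Sik2 was lowest in FSK1D at 140 CPM and highest in Rosi3D at 361 CPM.

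After 4 h of forskolin 5 of the 9 genes rose against vehicle (Crem, Atf1, Crtc2, Sik1, Sik3), in a comparison that called 59.0% of all tested genes, 28.4% higher and 30.7% lower. By edgeR's test with TMM 0 fell, also at an unadjusted p under 0.05 and by DESeq2. The split with library size alone was instead 3 higher (Crem, Crtc2, Sik1) and 4 lower (Creb1, Crtc1, Crtc3, Sik2), and Atf1 and Sik3 were not called. Crem and Sik1 changed by at least 2-fold, as 11.7% of all genes did. After 1 day 2 rose (Crem, Sik1), both by at least 2-fold, and 3 fell (Crtc3, Sik2, Sik3). That comparison called 40.2% of all genes, 19.4% higher and 20.7% lower, and 7.30% by at least 2-fold. After 3 days 3 rose (Crem, Sik1, Sik2), of which Crem reached 2-fold, and 4 fell (Crtc1, Crtc2, Crtc3, Sik3). Of all genes 52.9% were called there, 25.9% higher and 27.0% lower, and 8.23% by at least 2-fold. Rosiglitazone raised 4 (Crem, Crtc2, Sik2, Sik3) and lowered 4 (Atf1, Crtc1, Crtc3, Sik1), each by less than 2-fold. It changed 60.6% of all genes, 28.6% higher and 32.0% lower, and 14.6% by at least 2-fold. Calls were common among all genes, so the sizes and directions of single genes are described below.

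**Figure D2:**
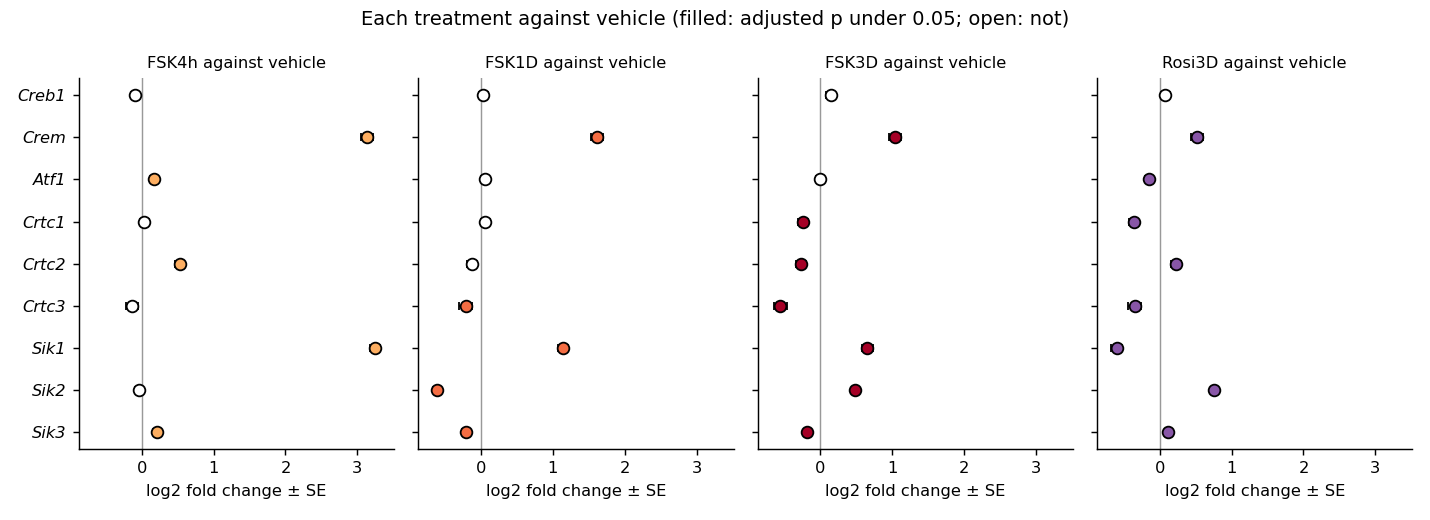
log2 fold change ± SE of the 9 genes in each treatment against vehicle, on a shared axis. Filled points have an adjusted p under 0.05 and open points do not. Crem and Sik1 stand apart at 4 h with 3.14 and 3.25, and Sik1 lies at -0.60 in Rosi3D.

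Among the transcription factors, Crem responded most to forskolin. It had 91.2, 95.5 and 94.7 CPM in the FSK4h libraries, against 9.87, 10.5 and 11.7 CPM in vehicle. All treated libraries were far above all vehicle libraries, a rise of 8.80-fold (3.14 ± 0.080, adjusted p = 1.52e-26), and 0.700% of all tested genes had a larger change in either direction. At 1 day Crem was at 32.5, 29.7 and 35.3 CPM, still above vehicle (1.61 ± 0.082, adjusted p = 9.99e-18). At 3 days it was at 23.8, 20.2 and 21.4 CPM (1.04 ± 0.085, adjusted p = 2.17e-12). The decline after 4 h was itself called at each step, at -1.53 ± 0.072 for FSK1D against FSK4h, then at -0.57 ± 0.078 for FSK3D against FSK1D. Rosiglitazone also raised Crem, to 16.1, 14.7 and 14.8 CPM (0.52 ± 0.085, adjusted p = 2.66e-06), with no overlap with the vehicle libraries. FSK3D exceeded Rosi3D by 0.52 ± 0.082 (adjusted p = 2.53e-06). From high to low the groups stood in the order FSK4h, FSK1D, FSK3D, Rosi3D and vehicle, and no neighbours in that order overlapped.

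Gene counts do not separate ICER from the longer CREM activators, since both come from the Crem gene (chromosome 18, 3266048 to 3337748, minus strand). GENCODE vM21 lists 39 transcripts of it. Its exons share 472 bases with Gm6225, an opposite-strand noncoding transcript, and how strand was handled was not stated. Gm6225 had 6.01 ± 1.43 CPM in FSK4h and 1.20 ± 0.309 CPM in vehicle (SD, n = 3 each; 2.32 ± 0.25, adjusted p = 7.99e-10), well below the level of Crem. It was also called higher at 1 day (0.90 ± 0.27, adjusted p = 0.00713), but not at 3 days or under rosiglitazone. Crem has 5895 exon bases in GENCODE vM21 and 4253 in the deposited table, so whether the shared bases were counted is not known. Reads from them, if counted, could not be told apart.

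Creb1 (chromosome 1, 64532645 to 64604548, plus strand), which encodes the factor the family is named for, had the narrowest range of the 9, 0.24 on the log2 scale between its highest and lowest group mean. It averaged 62.2 ± 3.01 CPM in vehicle, 58.4 ± 1.75 in FSK4h, 63.5 ± 5.84 in FSK1D and 68.8 ± 3.96 in FSK3D, and 65.6 ± 1.06 CPM in Rosi3D (SD, n = 3 each). Creb1 was called in none of the comparisons with vehicle under this test, with changes of -0.09 ± 0.061 at 4 h, 0.03 ± 0.061 at 1 day, 0.14 ± 0.061 at 3 days and 0.08 ± 0.060 under rosiglitazone. Creb1 was called lower at 4 h with library size alone (-0.28, adjusted p = 1.68e-04). The value at 3 days lay close to the threshold (adjusted p = 0.0511) and was called with RLE factors, with either other filter, with halved counts and by DESeq2 (0.15, adjusted p = 0.0462), as well as without vehicle S3 (0.19, adjusted p = 0.0186) or FSK3D S12 (0.19, adjusted p = 0.0162). FSK3D exceeded FSK4h by 0.23 ± 0.061 (adjusted p = 0.00117). Its groups stood in the order FSK3D, Rosi3D, FSK1D, vehicle and FSK4h, in which every pair of neighbours overlapped.

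Atf1 (chromosome 15, 100227819 to 100261244, plus strand), whose protein pairs with CREB1 and binds the same element, changed little. It had 61.0, 64.7 and 62.9 CPM in FSK4h libraries, against 54.2, 55.3 and 58.0 CPM in vehicle, and the groups did not overlap (0.17 ± 0.057, adjusted p = 0.00952). With library size alone in place of TMM the sign was reversed (-0.02). That scaling shifted the median of all genes by -0.19 in FSK4h against vehicle and moved higher genes to 27.3% of all calls, against 48.1% with TMM. The changes at 1 day and 3 days were 0.05 ± 0.057 and -0.01 ± 0.058 and were not called. Under rosiglitazone Atf1 was at 53.1, 51.1 and 46.7 CPM, below every vehicle library (-0.15 ± 0.057, adjusted p = 0.0270). This call was lost with no filter, a 1 CPM filter, halved counts or the 2 groups alone (adjusted p of 0.0518 to 0.0936), and without any 1 of vehicle S1, S2 and S3 or Rosi3D S14 and S15, the values running from -0.15 to -0.08 with adjusted p of 0.0519 to 0.251. In descending order Atf1 ran FSK4h, FSK1D, vehicle, FSK3D and Rosi3D, and FSK1D, vehicle and FSK3D overlapped.

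Of the coactivators, Crtc2 (chromosome 3, 90254163 to 90264125, plus strand), the CRTC best known from hepatic gluconeogenesis, changed most at 4 h. It stood at 45.9, 47.3 and 48.9 CPM in FSK4h, against 34.4, 32.0 and 32.2 CPM in vehicle, a 1.44-fold rise with no overlap (0.53 ± 0.066, adjusted p = 2.08e-08). After 1 day it overlapped vehicle, at 29.7, 28.3 and 32.1 CPM (-0.13 ± 0.068, adjusted p = 0.130). At 3 days it had fallen below every vehicle library, at 25.9, 27.8 and 27.9 CPM (-0.27 ± 0.069, adjusted p = 0.00112). Rosiglitazone moved Crtc2 the other way, to 38.04, 40.4 and 37.2 CPM (0.23 ± 0.066, adjusted p = 0.00341). The 2 agents at 3 days thus differed by -0.50 ± 0.069 in FSK3D against Rosi3D (adjusted p = 2.06e-07). The groups ran from FSK4h through Rosi3D, vehicle and FSK1D to FSK3D, and vehicle and FSK1D overlapped.

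Crtc1 and Crtc3, whose products share the CREB-binding and SIK-regulated parts of CRTC2, were not called at 4 h, with 0.04 ± 0.066 and -0.14 ± 0.086, although both were called lower with library size alone (-0.16, adjusted p = 0.0413, and -0.33, adjusted p = 0.00125). Both fell at 3 days. Crtc1 (chromosome 8, 70382355 to 70439579, minus strand) had 29.1, 30.3 and 28.6 CPM in FSK3D, against 32.7, 35.8 and 35.1 CPM in vehicle (-0.24 ± 0.068, adjusted p = 0.00346). Crtc3 (chromosome 7, 80586627 to 80688877, minus strand) had 16.7, 17.8 and 14.5 CPM in FSK3D, against 22.03, 24.97 and 24.5 CPM in vehicle (-0.56 ± 0.090, adjusted p = 2.92e-06). Neither gene overlapped between these groups. Crtc3 was also lower at 1 day (-0.21 ± 0.087, adjusted p = 0.0472), a call that ended without any 1 of vehicle S2 and S3 or FSK1D S7, S8 and S9 (-0.24 to -0.14, adjusted p = 0.0502 to 0.279) and under RLE factors (adjusted p = 0.0763) and DESeq2 (adjusted p = 0.0779).

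Rosiglitazone lowered both of these coactivators. Crtc1 was at 27.4, 26.9 and 26.0 CPM in Rosi3D (-0.36 ± 0.067, adjusted p = 1.6e-05) and Crtc3 at 19.4, 17.5 and 19.0 CPM (-0.35 ± 0.087, adjusted p = 7.29e-04). Between FSK3D and Rosi3D the differences were 0.13 ± 0.069 for Crtc1 and -0.21 ± 0.091 for Crtc3 and were not called. Crtc3 was called lower there with halved counts (-0.23, adjusted p = 0.0361), without FSK3D S11 (-0.27, adjusted p = 0.0279) or without Rosi3D S14 (-0.25, adjusted p = 0.0402). Crtc1 stood in the order FSK1D, FSK4h, vehicle, FSK3D, Rosi3D, with overlap among the upper 3 groups. For Crtc3 the order was vehicle, FSK4h, FSK1D, Rosi3D, FSK3D, and each group overlapped its neighbour.

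Sik1 had the largest change of the 9. This kinase gene (chromosome 17, 31844250 to 31855804, minus strand) had 203, 217 and 193 CPM in FSK4h libraries, against 21.4, 22.4 and 20.6 CPM in vehicle. The rise was 9.499-fold (3.25 ± 0.069, adjusted p = 1.19e-28), and 0.610% of all tested genes had a larger change in either direction. Sik1 stood at 45.1, 52.6 and 44.5 CPM after 1 day (1.14 ± 0.070, adjusted p = 1.47e-15) and at 32.5, 35.7 and 33.6 CPM after 3 days (0.65 ± 0.072, adjusted p = 2.03e-09), each above every vehicle library. The fall from the early peak was steep, with -2.11 ± 0.064 in FSK1D against FSK4h, and it went on with -0.49 ± 0.069 in FSK3D against FSK1D.

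Under rosiglitazone Sik1 differed from vehicle in the opposite direction. Rosi3D libraries had 14.1, 12.96 and 15.5 CPM, all below vehicle (-0.60 ± 0.076, adjusted p = 2.48e-08). FSK3D exceeded Rosi3D by 2.38-fold (1.25 ± 0.075, adjusted p = 1.03e-15), the only 1 of the 9 genes to differ by 2-fold between the agents. The groups stood in the order FSK4h, FSK1D, FSK3D, vehicle and Rosi3D with no overlap between neighbours, the same order as for Crem except that Rosi3D lay below vehicle.

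Sik2 (chromosome 9, 50892801 to 51009073, minus strand) took another course. It had 202, 216 and 208 CPM in FSK4h, against 208, 227 and 206 CPM in vehicle, and was not called (-0.04 ± 0.050, adjusted p = 0.540). It was called lower with library size alone (-0.23, adjusted p = 1.46e-04). At 1 day it fell to 151, 140 and 128 CPM, below all vehicle libraries (-0.61 ± 0.051, adjusted p = 3.39e-12). At 3 days it was above them, at 294, 301 and 305 CPM (0.49 ± 0.050, adjusted p = 3.67e-10). The step between these times was 2.14-fold (1.10 ± 0.051 in FSK3D against FSK1D, adjusted p = 1.08e-18).

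The highest Sik2 levels were those under rosiglitazone, with 357, 354 and 372 CPM (0.76 ± 0.050, adjusted p = 3.61e-15), above every FSK3D library (-0.27 ± 0.050 in FSK3D against Rosi3D, adjusted p = 3.11e-05). Sik2 ran in the order Rosi3D, FSK3D, vehicle, FSK4h and FSK1D, and vehicle and FSK4h overlapped. The summed level of the 8 mature adipocyte markers was likewise lowest in FSK1D and highest in Rosi3D, and Lpl was its largest part (4864.5 CPM in vehicle). It was 8658 to 10068 CPM in FSK4h, 6391 to 7019.7 CPM in FSK1D, 13886 to 14042 CPM in FSK3D and 15071 to 15966 CPM in Rosi3D, against 7976.5 to 9187 CPM in vehicle. Lpl itself had its highest mean in FSK3D, at 8663 CPM against 7020 CPM in Rosi3D. Pparg was also highest in FSK3D, and the other markers in Rosi3D. By mean, Lipe and Cidec were lowest in vehicle, Pparg in Rosi3D and the others in FSK1D. Of the marker genes 8 of 8 rose in FSK3D and 7 of 8 rose in Rosi3D, beside 25.9% and 28.6% of all genes. In FSK1D 1 rose and 3 fell, beside 19.4% and 20.7% of all genes. In FSK4h, where Sik2 was not called, 3 rose and 1 fell, beside 28.4% and 30.7%. Their part in the Sik2 result was not tested.

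Exons of Sik2 and of the opposite-strand gene Ppp2r1b, a phosphatase scaffold subunit, share 1429 bases in GENCODE vM21. Sik2 counts are uncertain if those bases were counted and strand was not kept. Sik2 has 9539 exon bases in GENCODE vM21 and 3552 in the deposited table, so whether the shared bases were counted is not known. Ppp2r1b had 406 ± 10.4 CPM after 4 h of forskolin, 237 ± 17.9 after 1 day and 406 ± 8.42 after 3 days, and 369 ± 0.955 CPM under rosiglitazone, against 294 ± 13.1 CPM in vehicle (SD, n = 3 each). It rose at 4 h (0.47 ± 0.047, adjusted p = 1.77e-10), where Sik2 was not called, and it was lower at 1 day and higher at 3 days and under rosiglitazone, as Sik2 was. The part of shared reads in the Sik2 counts was not tested.

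**Figure D3:**
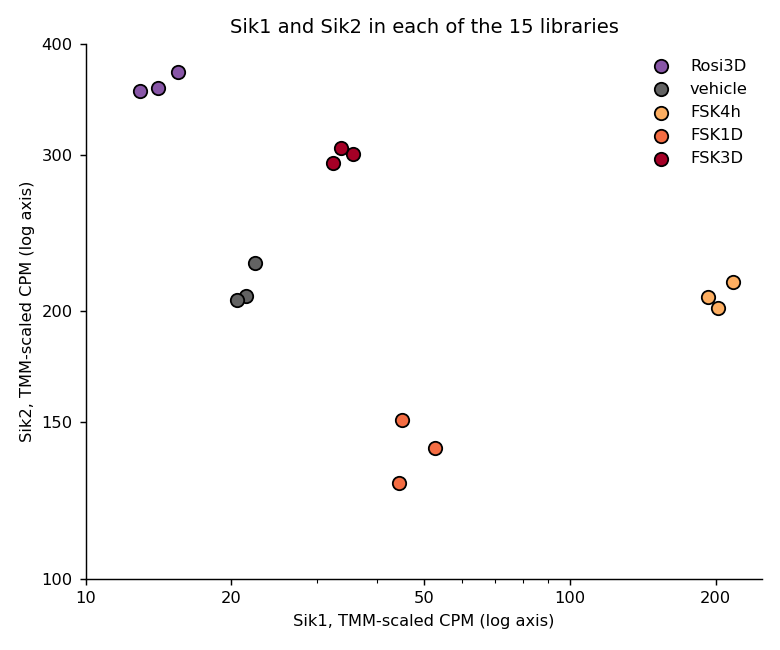
Sik1 and Sik2 in each of the 15 libraries, in TMM-scaled CPM on log axes, colored by group. The FSK4h libraries lie at 193 to 217 CPM of Sik1 with Sik2 near its vehicle level. The FSK1D libraries are lowest in Sik2 (128 to 151 CPM), and the Rosi3D libraries are lowest in Sik1 and highest in Sik2.

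Sik3 (chromosome 9, 46012820 to 46224194, plus strand) moved within a narrow range. It had 134, 138 and 139 CPM in FSK4h, against 121, 120 and 115 CPM in vehicle (0.21 ± 0.045, adjusted p = 1.82e-04). The groups did not overlap, but with library size alone the change was 0.01 and was no longer called (adjusted p = 0.806). Sik3 was then lower than vehicle at 106, 100.8 and 100.4 CPM in FSK1D (-0.21 ± 0.046, adjusted p = 2.67e-04) and at 101.4, 109 and 105 CPM in FSK3D (-0.18 ± 0.046, adjusted p = 0.00113). In Rosi3D it was slightly higher, at 129, 126 and 130 CPM (0.11 ± 0.045, adjusted p = 0.0295). That call was lost with library size alone (adjusted p = 0.109) and without vehicle S3 (0.11, adjusted p = 0.0670) or Rosi3D S13 (0.12, adjusted p = 0.0506). FSK3D lay below Rosi3D by -0.30 ± 0.046 (adjusted p = 2.01e-06). The order was FSK4h, Rosi3D, vehicle, FSK3D and FSK1D, in which FSK3D and FSK1D overlapped.

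The forskolin times were also set directly against each other. FSK1D against FSK4h and FSK3D against FSK1D each called 5 of the 9 genes, near the share of all genes called. FSK1D against FSK4h had 5 lower (Crem, Crtc2, Sik1, Sik2, Sik3), with 57.3% of all genes called, 28.4% higher and 28.9% lower, and 9.30% by at least 2-fold. By edgeR 0 of the 9 were higher, likewise 0 by DESeq2 and at an unadjusted p under 0.05, while with library size alone Creb1 (0.29, adjusted p = 1.73e-04) and Crtc1 (0.19, adjusted p = 0.0155) were called higher, and Creb1 was also called higher without FSK1D S8 (0.20, adjusted p = 0.00765). FSK3D against FSK1D had 1 higher (Sik2) and 4 lower (Crem, Crtc1, Crtc3, Sik1), with 51.0% called, 25.2% higher and 25.8% lower, and 8.63% by at least 2-fold. Without FSK1D S7 Creb1 was called higher in it (0.16, adjusted p = 0.0472), and without FSK1D S8 Crtc2 was called lower (-0.19, adjusted p = 0.0366). FSK3D against FSK4h had 2 higher (Creb1, Sik2) and 7 lower, with 68.5% called, 35.0% higher and 33.5% lower, and 18.5% by at least 2-fold. With library size alone Atf1 was at 0.00 and Crtc1 was no longer called (-0.10, adjusted p = 0.214). Crtc2 fell by 0.66 on the log2 scale at 1 day, relative to 4 h, and fell by 0.80 at 3 days. FSK3D against Rosi3D had 2 higher (Crem, Sik1) and 3 lower (Crtc2, Sik2, Sik3), with 43.1% of all genes called, 22.5% higher and 20.7% lower, and 7.26% by at least 2-fold. With library size alone Atf1 was also called higher there (0.15, adjusted p = 0.0332), as it was without FSK3D S12 (0.16, adjusted p = 0.0494) or Rosi3D S13 (0.18, adjusted p = 0.0282). These comparisons share libraries with each other and with those against vehicle.

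Levels were compared between family members only per length, as TPM from the gene lengths in the deposited table. In vehicle Atf1 made up 70.8% ± 0.479 of the summed TPM of the factors, Creb1 21.8% ± 0.241 and Crem 7.41% ± 0.340 (SD, n = 3). After 4 h of forskolin the share of Crem was 39.4% ± 0.285 and that of Atf1 48.2% ± 0.141. Crem then held 19.1% ± 0.735 after 1 day and 13.8% ± 1.10 after 3 days, and 10.8% ± 0.354 in Rosi3D. The summed TPM of the factors was 162 ± 3.49 in FSK4h and 112 ± 3.98 in vehicle.

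Sik2 was the main salt-inducible kinase transcript in vehicle, with 71.8% ± 0.832 of the summed TPM, against 22.5% ± 0.784 for Sik3 and 5.68% ± 0.0623 for Sik1. In FSK4h the share of Sik1 was 36.0% ± 1.13 and that of Sik2 46.7% ± 0.690. Sik1 held 15.9% ± 1.46 in FSK1D and 6.93% ± 0.244 in FSK3D, and in Rosi3D it held 2.51% ± 0.161 beside 81.2% ± 0.194 for Sik2. The summed TPM of the kinases was 365 ± 8.79 after 4 h of forskolin, 214 ± 12.3 after 1 day, 347 ± 7.46 after 3 days and 385 ± 8.62 under rosiglitazone, against 277 ± 11.99 in vehicle. Among the coactivators Crtc2 was the largest share in every group, from 52.4% ± 1.99 in FSK1D to 63.7% ± 1.42 in Rosi3D.

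The order of these shares at 4 h changed when other lengths were put under the same counts. The deposited lengths came with the counts, and GENCODE lengths may not match the bases that were counted. With the longest GENCODE transcript of each gene, Sik1 held 42.7% and Sik2 36.7% of the kinases in FSK4h, and Crem held 48.8% and Atf1 40.6% of the factors. In vehicle Sik2 (62.7%) and Atf1 (68.1%) remained the largest shares with those lengths. Sik2 has 3552 bases in the deposited table and 5369 in that transcript, and Crem 4253 and 2931.

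**Figure D4:**
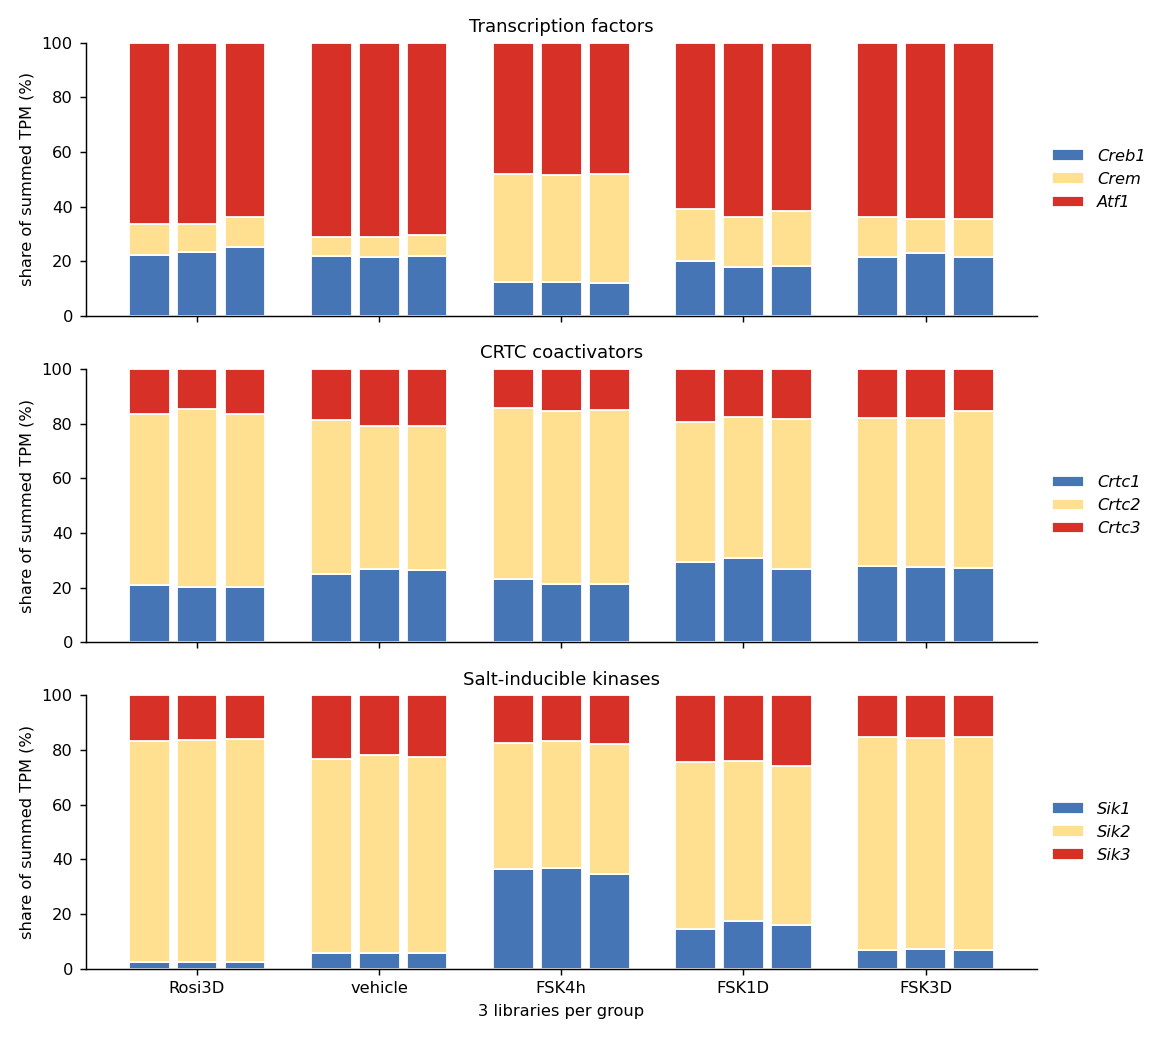
Share of each gene in the summed TPM of its family, in percent, for each of 3 libraries per group. Colors are genes of 1 family and each bar sums to the whole family. The Crem and Sik1 segments are largest in FSK4h, at 39.4% and 36.0%, and the Sik1 segment is smallest in Rosi3D at 2.51%.

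Over the 15 libraries, the gene most like Crem in log2 CPM was Gja1, the gap junction protein connexin 43 (Pearson's r = 0.996), followed by Acsl4, an acyl-CoA synthetase for arachidonate (0.992), and Lhfpl2 (0.987). Acsl4 had 1543 ± 29.3 CPM in FSK4h and 187 ± 10.6 CPM in vehicle (SD, n = 3 each). Sik1 was most like Rnf217, a ubiquitin ligase gene (0.995), the splicing factor gene Sf3b1 (0.991) and Ywhaz, which encodes 14-3-3 zeta (0.989). Rnf217 had 112 ± 7.80 CPM in FSK4h, 28.1 ± 1.17 CPM in Rosi3D and 35.7 ± 1.63 CPM in vehicle, below vehicle under rosiglitazone as Sik1 was. For Sik2 the nearest were Pla2g16, the adipose phospholipase (0.987), Adig, adipogenin (0.986), and Dhrs9 (0.978), of which Adig had 145 ± 5.14 CPM in Rosi3D, against 55.5 ± 5.40 CPM in vehicle. The points are 5 groups of 3 libraries, and these genes were the highest of 14412 candidates. Crem and Sik1 had r = 0.948 with each other, and Sik1 and Sik2 had -0.466.

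Of 19 tested target genes of the CRE (of 20 listed), 18 rose at 4 h and 0 fell, by edgeR, by DESeq2 and at an unadjusted p under 0.05, with a median of 2.19, beside a median of -0.03 over all genes. Nr4a3, an orphan nuclear receptor, had 435 ± 22.2 CPM in FSK4h and 2.18 ± 0.204 CPM in vehicle (7.63 ± 0.19, adjusted p = 6.96e-12). Areg, which encodes amphiregulin, a ligand of the EGF receptor, had 495 counts over the FSK4h libraries and 2 over vehicle, 252 times as much per scaled library, where counting error alone, at 95% and on halved counts, allows 44.7 to 9974. At 1 day 13 rose and 4 fell, at 3 days 10 rose and 5 fell, and under rosiglitazone 4 rose and 10 fell, with medians of 1.03, 0.55 and -0.61. Of all genes 28.4% rose and 30.7% fell at 4 h, and 19.4% and 20.7% at 1 day. The shares were 25.9% and 27.0% at 3 days and 28.6% and 32.0% under rosiglitazone. Nr4a3 fell under rosiglitazone (-1.26 ± 0.39, adjusted p = 0.0147), as Sik1 did. This list was drawn up with earlier results of these data known.

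The acetyltransferase genes Crebbp and Ep300, which encode CBP and p300, were not called at 4 h by edgeR (0.06 ± 0.046 and 0.06 ± 0.044). With library size alone both were lower (-0.13 each). Rosiglitazone lowered both (-0.22 ± 0.046 and -0.14 ± 0.044). Among other CREB and ATF genes 7 rose and 4 fell of 15 tested at 4 h, beside 28.4% and 30.7% of all genes. The stress-response factor Atf3 had 47.3 CPM in FSK4h against 7.91 CPM in vehicle (2.58 ± 0.12, adjusted p = 7.92e-18), and Crebl2 fell (-0.85 ± 0.11, adjusted p = 6.93e-08).

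Upstream of the kinases, the LKB1 gene Stk11 rose at 4 h (0.48 ± 0.050, adjusted p = 4.92e-10), as did its partner Cab39 (0.48 ± 0.047), while Stradb, the pseudokinase partner, fell (-0.93 ± 0.094). The list as a whole had 2 higher and 2 lower of 5 tested, in a comparison that called 28.4% of all genes higher and 30.7% lower. Stradb rose under rosiglitazone (0.94 ± 0.086, adjusted p = 1.29e-11). Among other AMPK-related kinases 2 rose and 4 fell of 12 tested at 4 h, with falls of -1.53 ± 0.076 in Nuak1 and -0.54 ± 0.082 in Prkaa2, a catalytic subunit of AMPK. Nuak1 was below vehicle in every treatment, from -1.64 in FSK3D to -1.18 in FSK1D, and Prkaa2 rose at 3 days of forskolin and of rosiglitazone by 0.93 in each.

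Of the class IIa histone deacetylases, further substrates of the salt-inducible kinases, Hdac4 rose at 4 h (0.60 ± 0.065, adjusted p = 7.89e-10) and Hdac9 fell (-2.23 ± 0.19, adjusted p = 3.34e-12). Hdac5 and Hdac7 were not called at 4 h (0.10 ± 0.056 and 0.03 ± 0.059, but -0.10 and -0.17 with library size alone, the last called). Both fell at 3 days (-0.88 ± 0.059 and -0.75 ± 0.062), while under rosiglitazone Hdac7 fell (-1.09 ± 0.062) and Hdac5 was at -0.08 ± 0.056 and not called. The 14-3-3 genes had 5 higher and 1 lower of 7 tested at 4 h, and 2 higher and 1 lower with library size alone. Of all genes 28.4% were called higher and 30.7% lower at 4 h with TMM. Ywhaz rose most, at 327 CPM in FSK4h against 153 CPM in vehicle (1.10 ± 0.049, adjusted p = 1.36e-19), and Ywhag rose by 0.66 ± 0.049. Under rosiglitazone 2 of the 14-3-3 genes rose and 5 fell, beside 28.6% and 32.0% of all genes. Of calcineurin subunits and inhibitors, which act on the phosphatase that frees CRTC proteins, 3 rose and 2 fell of 7 tested at 4 h, with Rcan2 and Rcan3 lower (-0.99 ± 0.14 and -0.61 ± 0.071). The inhibitor gene Rcan1 went the other way, higher at 4 h (0.46 ± 0.057, adjusted p = 1.9e-08) and at 1 day (1.90 ± 0.056, adjusted p = 3.68e-24).

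**Figure D5:**
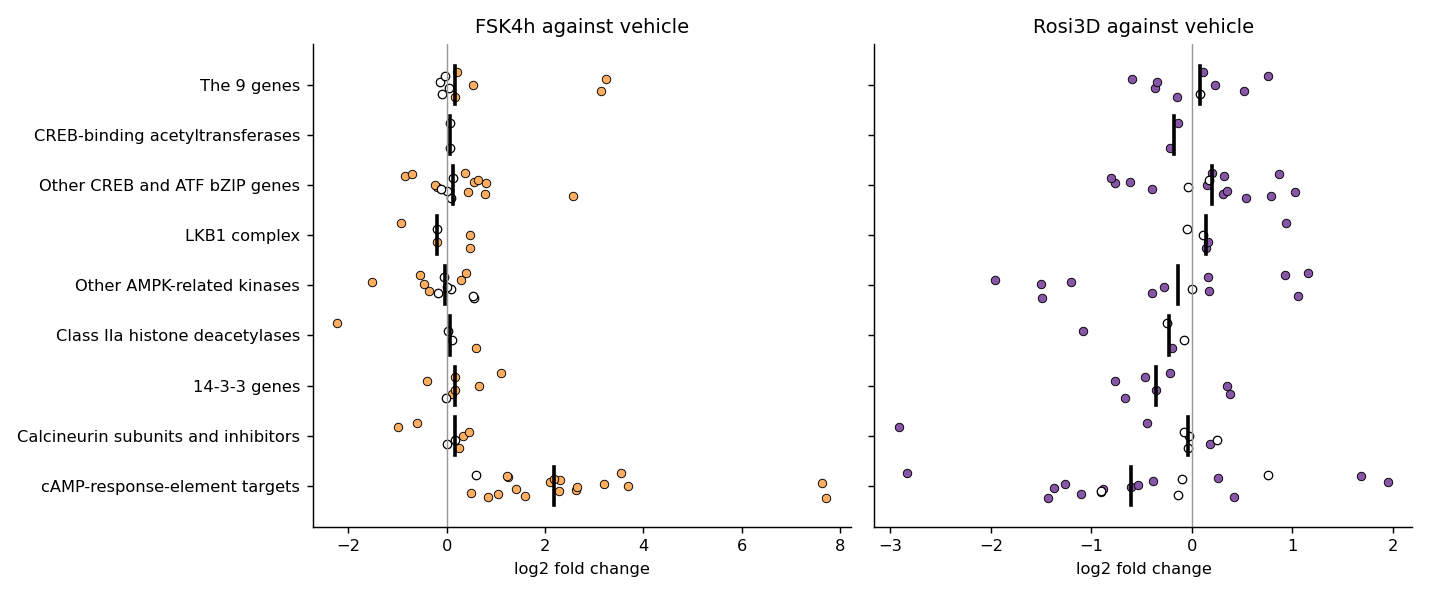
log2 fold change of the 9 genes and of each list in FSK4h and in Rosi3D against vehicle. Filled points have an adjusted p under 0.05, open points do not, and black bars are medians. Areg, with 0 and 2 counts, is not drawn in the Rosi3D panel. The CRE targets have a median of 2.19 in FSK4h and of -0.61 in Rosi3D.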

How the data were processed

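RNA from 15 libraries in 5 groups of 3 was depleted of ribosomal RNA and sequenced, per the labels' protocols. The table deposited by the authors gives raw whole-number counts for each gene and, per the file headers, a gene length. Reads were handled with fastp, STAR and featureCounts on GRCm38 (mm10), per the submitters' processing notes. Tool versions, the annotation, strand, read pairs and multiple matches are not given there. Count columns carry their group and a number from S1 to S15, which differs from the labels' replicate numbers. Separate cultures are not mentioned, so the p-values cover the spread among libraries, and that spread may be technical.

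In R 4.3.3, edgeR 4.0.16 was fitted to all 15 libraries (filterByExpr, TMM factors of 0.899 to 1.04, 1 mean per group, robust quasi-likelihood fit, 10 residual degrees of freedom), with two-sided p-values adjusted by Benjamini-Hochberg over 14421 genes. SE is the change divided by the square root of F. TPM used the deposited lengths. More genes had a count of 2 (721 to 907 per library) than of 1 (407 to 539), so reads may not be independent and the interval for Areg used halved counts. It covers counting error only. Positions come from GENCODE vM21, which matched 23376 symbols (95.7%). The alternatives were RLE factors, library size alone, no filter, a 1 CPM filter, halved counts, DESeq2 1.42.0, the 2 groups alone, each library left out, and longest transcript lengths. The 9 genes and the lists were chosen with earlier results of these data known. All 9 were named in every comparison, with the 3 genes most like Crem, Sik1 and the most variable other member (Sik2) by Pearson's r (prior count 2), and per list the 2 called genes with the largest change at 4 h, plus Crebbp, Ep300, Stk11 and all class IIa deacetylases. Gm6225 and Ppp2r1b were added because they overlap members, and Rcan1 because it moved against Rcan2 and Rcan3 at 4 h.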

Additional observations from a re-analysis of the deposited data

Results flagged for a closer look

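Some effects against vehicle were called in opposite directions, with the difference itself called. All use the same vehicle libraries. Sik1 rose in FSK3D (0.65) and fell in Rosi3D (-0.60), a difference of 1.25 ± 0.075 (adjusted p = 1.03e-15 in edgeR's quasi-likelihood test). Sik2 rose in FSK3D (0.49) and fell in FSK1D (-0.61), a difference of 1.10 ± 0.051 (adjusted p = 1.08e-18). Crtc2 fell in FSK3D (-0.27), against rises in FSK4h (0.53) and Rosi3D (0.23), with differences of -0.80 ± 0.068 and -0.50 ± 0.069. Sik3 fell in FSK1D (-0.21) and FSK3D (-0.18), against rises in FSK4h (0.21) and Rosi3D (0.11). Its differences were -0.42 ± 0.046 for FSK1D against FSK4h, -0.39 ± 0.046 for FSK3D against FSK4h and -0.30 ± 0.046 for FSK3D against Rosi3D. The rise of Sik3 in FSK4h was not called with library size alone.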

How the results depend on the processing

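The number of the 9 genes called, and of all genes called, stayed within 1.5 times its value in each of the 8 comparisons under every alternative run, but the split did not hold with library size alone. In FSK4h against vehicle it was then 3 higher and 4 lower, against 5 and 0 with TMM, with Creb1 (-0.28), Crtc1, Crtc3 (-0.33) and Sik2 (-0.23) lower and Atf1 and Sik3 not called. In FSK1D against FSK4h it was 2 higher and 5 lower, against 0 and 5. No paired analysis was possible because the columns of the table carry no replicate numbers of the labels. Of the changes of the 9 genes under alternatives, 876 kept direction and side of the threshold, 25 lost the call, 21 gained one and 14 changed sign. With library size alone signs changed for Atf1 (-0.021) and Crtc1 (-0.16, then called) in FSK4h against vehicle, Atf1 (0.047) and Crtc3 (0.089) in FSK1D against FSK4h, and Atf1 (0.000825) in FSK3D against FSK4h. Crebbp (-0.13), Ep300 (-0.13), Hdac5 (-0.10) and Hdac7 (-0.17) changed sign at 4 h too. That scaling shifted the median of all genes by -0.19, 0.16 and 0.18 in FSK4h against vehicle, FSK1D against FSK4h and FSK3D against FSK4h, with 27.3%, 68.8% and 65.1% of calls higher. Atf1 in FSK3D against vehicle, near 0, was positive under RLE factors (0.0014), no filter (0.0032), a 1 CPM filter (0.0086), halved counts (0.0064) and DESeq2 (0.000986), and ran from -0.015 to 0.031 when libraries were left out. Without 1 library Sik2 in FSK4h against vehicle ran from -0.057 to 0.021 and Creb1 in FSK1D against vehicle from -0.010 to 0.117. Depth was lowest in FSK3D S11 (14056200 counts), where Crtc3 had 260 counts.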
